A study of Mus musculus with 12 samples.

Results

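The complement genes of the kidney described here are 9 genes, chosen by name: the C1q chain genes C1qa, C1qb and C1qc, the protease gene C1ra, the component genes C3, C4b and Cfb, and the receptor genes C3ar1 and C5ar1. All 9 were found by symbol among the 55487 genes of the deposited table. They were measured by bulk messenger RNA sequencing of kidneys of 30-week-old male mice on the B6 background with X-linked Alport syndrome, a hereditary disease of the type IV collagen network of the glomerular basement membrane. The sample titles name the collagen gene Col4a5, and the genotype field reads HET in every sample, a term that the labels do not explain for an X-linked gene in males. One group was fed a control diet (6 libraries) and the other a diet holding fisetin, a plant flavonol, at 500 ppm (6 libraries). The labels name 2 batches, and either one held 3 libraries per diet. All 12 kidneys carried the disease, and no healthy kidney was used here. Each sample title carries a number of its own, but the labels do not say that it stands for an animal. The spread that p-values rest on may therefore in part be technical.

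Complement is a cascade of plasma and tissue proteins that tags and attacks targets. C1q, assembled from the A, B and C chains and made mainly by macrophages, starts the classical pathway with the proteases C1r and C1s, which cut C4 and C2. C3 is the central component on which all pathways converge, and factor B, the product of Cfb, is the protease of the alternative pathway that amplifies C3 cleavage. The fragments C3a and C5a act on myeloid cells through the receptors encoded by C3ar1 and C5ar1. In the kidney, tubule cells are a known local source of C3, C4 and factor B, and local complement synthesis is a known feature of chronic kidney injury.

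Total counts per library ran from 16310214 to 24451821, and all 9 genes passed the count filter, with between 115 (C5ar1) and 30839 (C3) counts in a library. Values below are CPM, counts scaled for library size with TMM factors, unless FPKM, which is also per transcript length, is named. In all, 3 libraries stood apart in ways that touch these genes. Fisetin 6 had the lowest score of macrophage markers of all 12 libraries, and control 1 the highest within the control diet. Fisetin 5 held messages typical of liver: albumin message (Alb) was at 737 CPM there and between 1.58 and 5.48 CPM in the 11 other libraries. Liver is the main source of plasma complement, so the members' diet differences below are also given without these libraries.

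The C1q genes sit side by side on the minus strand of chromosome 4 (GRCm38). C1qb spans 136880129 to 136886187, C1qc 136889804 to 136893065 and C1qa 136895917 to 136898803. The gaps between them are 3616 and 2851 bases, and the 3 genes fit in 18675 bases. C4b (34728380 to 34743882) and Cfb (34856374 to 34862518) lie 112491 bases apart on the minus strand of chromosome 17, within the major histocompatibility region. C3 is on the same chromosome but far away, at 57203970 to 57228136. C1ra (124512405 to 124523443) and C3ar1 (122847138 to 122856161) are on chromosome 6, 1.66 Mb apart, and C5ar1 (16246743 to 16259540) is on chromosome 7, beside the related receptor gene C5ar2.

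RefSeq promoters (GRCm38.p6) were at hand for 6 of the 9 genes. Those of C3 and C1qb are shown because these 2 genes had parallel levels across the kidneys, as described below, although one is known as tubule-made and the other as a macrophage gene. Each line gives the 250 bases before the RefSeq start, read 5′ to 3′ on the minus strand, and capitals mark matches to the 6 motifs that were searched on both strands.
C3, chr17:57228137-57228386: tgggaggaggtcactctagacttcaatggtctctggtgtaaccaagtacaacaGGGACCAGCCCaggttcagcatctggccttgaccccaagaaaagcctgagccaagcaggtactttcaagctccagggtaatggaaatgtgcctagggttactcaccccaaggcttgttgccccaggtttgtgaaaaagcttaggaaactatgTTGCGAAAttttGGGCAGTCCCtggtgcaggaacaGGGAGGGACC
C1qb, chr4:136886201-136886450: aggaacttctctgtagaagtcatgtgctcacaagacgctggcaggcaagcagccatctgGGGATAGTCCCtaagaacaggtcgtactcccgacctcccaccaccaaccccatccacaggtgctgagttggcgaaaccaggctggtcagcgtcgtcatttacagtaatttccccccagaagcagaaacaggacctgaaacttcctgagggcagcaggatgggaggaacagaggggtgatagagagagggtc
The motifs were NF-kB (GGG, any 5 bases, CC), the interferon-stimulated element (GAAA, any 2 bases, GAAA), a STAT site (TTCNNNGAA), C/EBP (TTGCNNAA), AP-1 (TGANTCA) and PU.1 (GAGGAAG). In the C3 promoter the C/EBP letters begin at -45, counted from the start, and 9.56% of the 32851 promoters in the table hold such a match. NF-kB letters begin at -197, -196, -33 and -10 of C3, the first 2 overlapping on opposite strands. The C1qb promoter has 2 overlapping NF-kB matches, which begin at -191 and -190, and none of the other 5 motifs. C1qc, whose promoter is not shown, was as close to C3. With batch and diet means removed, r with C3 was 0.950 for C1qc and 0.938 for C1qb. The C1qc window holds the only PU.1 match of the 6 windows, beginning at -194, where 10.6% of all promoters hold one. NF-kB letters are common, being found in 45.8% of all promoters in the table and in 4 of the 6 promoters of these genes. Neither the interferon-stimulated element nor the STAT site was found in any of the 6 windows, against 2.98% and 7.02% of all promoters. In bases upstream of the GENCODE start, the RefSeq starts lay at -216 for C1ra, -202 for C5ar1 and -151 for C1qc. A negative value means inside the annotated gene, so most of each of these windows is not upstream of it. These are matches of letters and not sites of binding.

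Per transcript length, C3 had the highest mean level with both diets. With the control diet C3 had 163 ± 45.9 FPKM (SD, n = 6) and Cfb 156 ± 12.4 FPKM, and the ranges of these 2 genes overlapped. Next came C1qa at 112 ± 34.3, C1qb at 86.3 ± 24.3 and C1qc at 68.4 ± 20.8 FPKM, whose ranges also overlapped from one to the next. C4b (33.7 ± 2.78 FPKM) was separated from C1qc above it and from C1ra below it (16.5 ± 2.82 FPKM), and C1ra from the receptors. C3ar1 (7.24 ± 2.19 FPKM) and C5ar1 (6.29 ± 2.29 FPKM) had overlapping ranges. With fisetin C1qa (152 ± 45.6 FPKM, n = 6) stood above Cfb (122 ± 21.1 FPKM) in mean, and C3 was at 265 ± 102 FPKM. The plot of FPKM by gene shows that Cfb and C4b had the narrowest spread for their level with the control diet, while C3 ran from 108 to 212 FPKM and C1qa from 77.2 to 172 FPKM between kidneys fed that same diet.

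**Figure D1:**
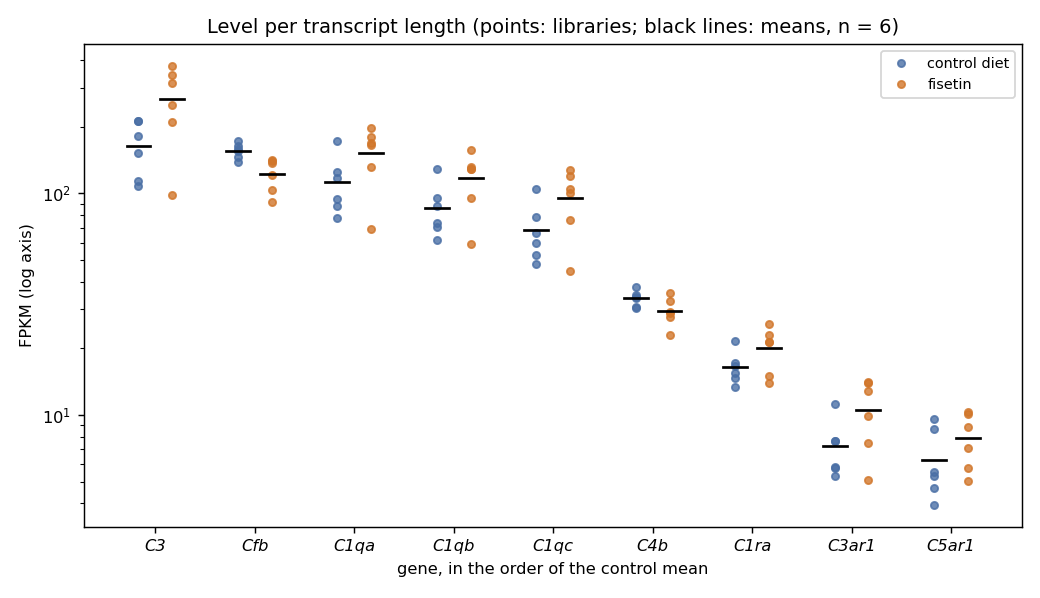
Level of each complement gene per transcript length (FPKM, log axis) in 6 control diet and 6 fisetin libraries, with genes in the order of the control mean; points are libraries and black lines are means. Control means run from 163 FPKM for C3 to 6.29 FPKM for C5ar1.

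The comparison of diets asked whether macrophage C1q and the tubule-made components differed between kidneys of mice fed fisetin and kidneys of mice fed the control diet. The members did not move as 2 blocks. C1qa, C1qb, C1qc, C1ra, C3, C3ar1 and C5ar1 had higher means with fisetin, and C4b and Cfb had lower means. None of these differences passed over all genes: edgeR's quasi-likelihood test with batch as a covariate called 0 of the 9 genes, where it called 0 of 17890 genes in all (0.0%), and DESeq2 also called 0 of the 9, where it called 0.847% of 17009 genes. At an unadjusted p under 0.05 by edgeR, 2 of the 9 were higher (C3 and C3ar1) and 2 lower (C4b and Cfb), against 8.23% and 6.34% of all genes, or 4 of 9 against 14.6% in either direction. The 2 higher became 6 without control 1 (11% of all genes), 6 without fisetin 6 (13.3%) and 4 without fisetin 3 (9.78%). Without any 1 of the 9 other libraries the count was 1, where the share of all genes was 4.80% to 8.79%. limma-voom with sample quality weights, which gave fisetin 6 the lowest weight, called 7 of the 9 genes, all but C1ra and C5ar1, where it called 13.4% of all genes. The median log2 fold change of the 9 was 0.39, against 0.0008 for all genes tested, and the median size regardless of sign was 0.39 against 0.11. The split of 7 positive and 2 negative signs was the same under each of the 21 alternative analyses. For none of the 9 were the 2 diets free of overlap, where 0.894% of all genes tested were (0.47% higher and 0.425% lower with fisetin).

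**Figure D2:**
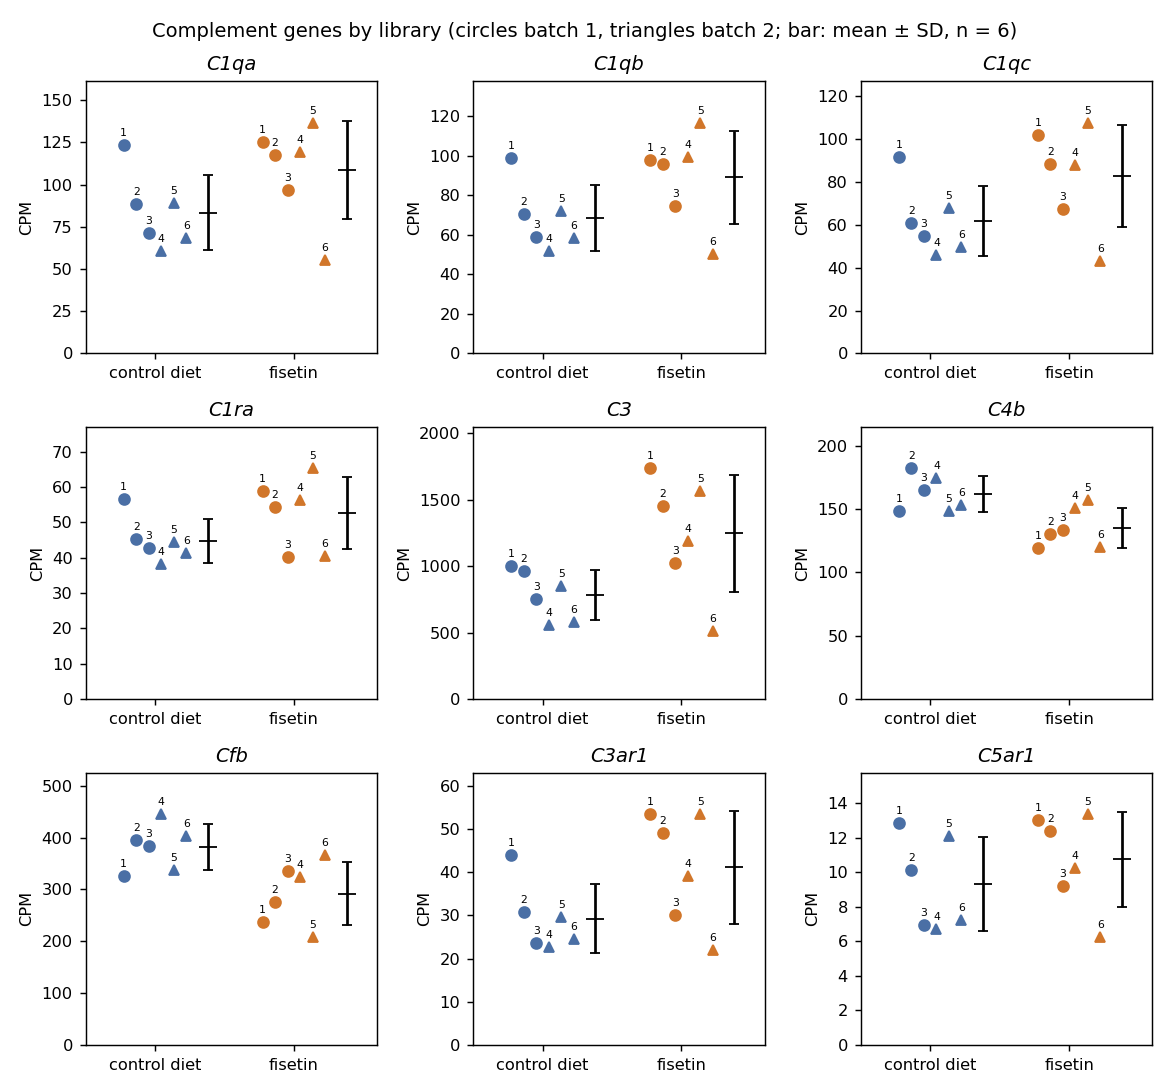
CPM of each complement gene in the 12 libraries, numbered within diet, with circles for batch 1 and triangles for batch 2; the bar is the mean ± SD (n = 6). In C1q, C3 and receptor genes fisetin 6 is the lowest fisetin library, and in Cfb and C4b no fisetin library exceeds the control mean.

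C1q, the recognition molecule of the classical pathway, had a higher mean with fisetin for each of its 3 chains. C1qa ranged from 60.8 over a median of 79.7 to 123 CPM with the control diet and from 55.4 over 118 to 137 CPM with fisetin. C1qb ranged from 51.7 over 64.7 to 98.7 CPM and from 49.98 over 96.7 to 117 CPM. C1qc ranged from 46.0 over 57.9 to 91.5 CPM and from 43.2 over 88.3 to 108 CPM. For each chain 5 of 6 fisetin kidneys lay above the control mean, while fisetin 6 lay below every control kidney and control 1 lay among the fisetin kidneys. The log2 fold changes were 0.39 ± 0.21 (SE) for C1qa, 0.39 ± 0.20 for C1qb and 0.43 ± 0.22 for C1qc, with edgeR adjusted p of 0.386, 0.374 and 0.367. Without control 1 they were 0.51, 0.51 and 0.56, without fisetin 6 they were 0.51, 0.50 and 0.55, and without fisetin 5, the library with liver messages, they were 0.27, 0.26 and 0.30.

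The 3 chains kept close to a fixed proportion in all 12 kidneys. C1qb stood at 0.719 to 0.848 of the C1qa level in FPKM, with a mean of 0.774 ± 0.0226 (SD, n = 6) with the control diet and 0.775 ± 0.0471 with fisetin. C1qc stood at 0.569 to 0.67 of C1qa, with means of 0.61 ± 0.024 and 0.627 ± 0.0343. The coefficients of variation of these ratios over 12 libraries were 4.55% and 4.77%, although C1qa itself differed 2.47-fold between the highest and the lowest library.

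C1ra encodes C1r, the first protease that C1q activates. It ranged from 38.2 over a median of 43.6 to 56.5 CPM with the control diet and from 40.2 over 55.4 to 65.3 CPM with fisetin. The 2 diets overlapped over most of this range, and 4 of 6 fisetin kidneys were above the control mean. Its log2 fold change was 0.24 ± 0.13 (edgeR adjusted p = 0.397), with 0.09 in batch 1 alone and 0.39 in batch 2 alone. It was 0.30 without fisetin 6, 0.15 without fisetin 5 and 0.31 without control 1. A near-identical gene, C1rb, lies 46850 bases away, and C1ra counts were not whole in 3 libraries, so a part of its reads may be divided with relatives. C1rb itself had at most 1.48 counts in a library.

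C3 had the largest fold change of the 9. It ranged from 559 over a median of 803 to 1004 CPM with the control diet. With fisetin it ranged from 509 over 1321 to 1735 CPM. With fisetin 5 of 6 kidneys were above the highest control kidney, and fisetin 6 was below the lowest. The log2 fold change was 0.67 ± 0.24, a 1.59-fold difference. Adjusted p was 0.296 by edgeR and 0.115 by DESeq2. It was 0.63 in batch 1 alone and 0.72 in batch 2 alone. Without fisetin 6 it was 0.82 ± 0.17 with an edgeR adjusted p of 0.0591, and 0.388% of all genes were called. Without fisetin 5 it was 0.51 ± 0.23 with an adjusted p of 0.544. Without control 1 it was 0.71. Fisetin 5 had the second highest C3 level (1566 CPM) after fisetin 1 (1735 CPM), and the part of liver messages in C3 was not tested.

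C4b, which encodes C4, the classical pathway component that C1s cuts, had the smallest p of the 9 genes. It ranged from 148 over a median of 159 to 182 CPM with the control diet and from 119.5 over 132 to 157 CPM with fisetin. All 6 fisetin kidneys were below the control mean and 4 of 6 were below the lowest control kidney. The log2 fold change was -0.26 ± 0.08, a fold of 0.834. Adjusted p was 0.281 by edgeR and 0.112 by DESeq2. The log2 fold change was -0.37 in batch 1 alone, -0.15 in batch 2 alone, -0.22 without fisetin 6, -0.31 without fisetin 5 and -0.28 without control 1. The interaction of diet with batch had an adjusted p of 1.00 for C4b, as for the other 8 members. C4b shares sequence with C4a, 65209 bases away, and its counts were not whole in 11 of 12 libraries, so the division of reads between these copies is uncertain. C4a had at most 55.0 counts in a library against at least 2124 for C4b.

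Cfb, the gene of complement factor B, was the other gene with a lower mean. It ranged from 326 over a median of 389 to 445 CPM with the control diet and from 209 over 300.2 to 366 CPM with fisetin. All 6 fisetin kidneys were below the control mean and 4 of 6 were below the lowest control kidney. The log2 fold change was -0.39 ± 0.13, a fold of 0.764. Adjusted p was 0.290 by edgeR and 0.133 by DESeq2. The log2 fold change was -0.38 in batch 1 alone and -0.39 in batch 2 alone, -0.46 without fisetin 6, -0.30 without fisetin 5 and -0.42 without control 1. The annotated gene Gm20547 overlaps 6107 bases of Cfb on the same strand, and Cfb counts were not whole in 2 libraries, so reads of the pair may not be fully separated. The 3′ end of C2, the gene of the classical pathway counterpart of factor B, lies 85 bases from the start of Cfb, and its log2 fold change was 0.07 ± 0.08.

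The receptor genes followed the C1q genes. C3ar1, the receptor of C3a, ranged from 22.7 over a median of 27.2 to 44.1 CPM with the control diet and from 22.0 over 44.0 to 53.4 CPM with fisetin, and its log2 fold change was 0.50 ± 0.22 (edgeR adjusted p = 0.334). C5ar1, the receptor of C5a, ranged from 6.73 over 8.67 to 12.8 CPM and from 6.27 over 11.3 to 13.4 CPM, with 0.20 ± 0.21 (adjusted p = 0.635). In both genes fisetin 6 was the lowest of all 12 kidneys. Without fisetin 5 the values were 0.35 and 0.09, without fisetin 6 they were 0.62 and 0.31, and without control 1 they were 0.63 and 0.30.

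Set beside each other, the C1q genes and the 3 genes named as tubule-made had different distances to the control kidneys. The mean of the C1q genes in log2 CPM was 6.11 ± 0.35 (SD, n = 6) with the control diet and 6.48 ± 0.46 with fisetin. The mean of C3, C4b and Cfb was 8.50 ± 0.11 and 8.47 ± 0.17 log2 CPM, in which the higher C3 and the lower C4b and Cfb offset each other. C1q minus these 3 genes was -2.39 ± 0.33 with the control diet and -1.99 ± 0.32 with fisetin, a difference of 0.40, with 0.34 in batch 1 and 0.45 in batch 2. Against C4b and Cfb alone the difference was 0.71, with 0.67 and 0.75 in the batches. These are descriptions over chosen genes and were not tested.

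C3 ran apart from Cfb and stayed near C1q from kidney to kidney, so the 3 genes named as tubule-made did not vary as one group. Bulk libraries do not show which cells held a message. The ratio of C3 to Cfb in FPKM was 0.628 to 1.53 with the control diet and 0.696 to 3.75 with fisetin, and it was lowest in control 4 and highest in fisetin 5. The ratio of C3 to C1qa was 1.23 to 1.81 with the control diet and 1.41 to 2.09 with fisetin. Over all 12 libraries the coefficient of variation was 63.5% for C3 to Cfb and 15.9% for C3 to C1qa.

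Macrophage markers were followed in the same libraries with a list of 12 genes that holds no member, among them the signalling adaptor gene Tyrobp and the growth factor receptor gene Csf1r. All 12 were tested and had positive fold changes. At an unadjusted p under 0.05 by edgeR, 5 of the 12 were higher, against 8.23% of all genes. By edgeR 0 of 12 passed, where 0.0% of all genes did, and by DESeq2 0 of 12, where 0.847% did. Their summed level was 411 to 665 CPM with the control diet and 418 to 834 CPM with fisetin. Their score, the mean log2 CPM, was 4.83 ± 0.28 and 5.20 ± 0.42 (SD, n = 6 each), a difference of 0.37 with an exact permutation p of 0.1 (two-sided, 400 arrangements within batches) and an adjusted p of 0.292 over 9 marker lists, with 0.34 in batch 1 and 0.40 in batch 2. It was 0.53 without fisetin 6, 0.46 without control 1 and 0.25 without fisetin 5, with unadjusted exact permutation p of 0.015, 0.065 and 0.23. In bulk tissue a larger number of macrophages and more message per macrophage cannot be told apart, and the part of this score in the diet differences was not tested.

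Between libraries of one diet and batch, 7 of the 9 members followed the macrophage score closely. With the means of each batch and diet removed, Pearson's r over 12 libraries was 0.985 for C1qa, 0.991 for C1qb, 0.996 for C1qc, 0.962 for C1ra, 0.960 for C3, 0.973 for C3ar1 and 0.946 for C5ar1, and Spearman's rho was 0.937 to 1.00. Each had an exact permutation p of 0.000772, the smallest that 1296 arrangements can give, and an adjusted p of 0.00198 over 18 relations, for r and for rho. Without fisetin 5 and fisetin 6, the 2 libraries farthest from the median, these 7 values of r were 0.903 (C3) to 0.992 (C1qc). They were 0.871 (C3) to 0.993 (C1qc) in batch 1 and 0.948 (C5ar1) to 0.997 (C1qc) in batch 2. Within a batch none passed: the smallest adjusted p was 0.0833 in batch 1 and 0.0714 in batch 2, from the smallest exact permutation p that 36 arrangements can give (0.0278), which 6 and 7 of the 18 relations reached. Cfb ran the other way, with r = -0.872 and rho = -0.874 (exact permutation p of 0.00849 and 0.00463, adjusted 0.0191 and 0.0104), -0.794 without those 2 libraries, -0.895 in batch 1 and -0.863 in batch 2. C4b had r = 0.207 and rho = 0.049 (exact permutation p = 0.728 and 0.93, adjusted to the same values), which was -0.652 without fisetin 5 and fisetin 6, -0.734 in batch 1 and 0.626 in batch 2. All points share their libraries, and CPM are shares of a library. Within each batch and diet, the proximal tubule score described below ranked the libraries in the reverse order of the macrophage score. Following the macrophage score therefore cannot be told apart here from running against the proximal tubule score. No relation of the members with the proximal tubule score was tested.

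**Figure D3:**
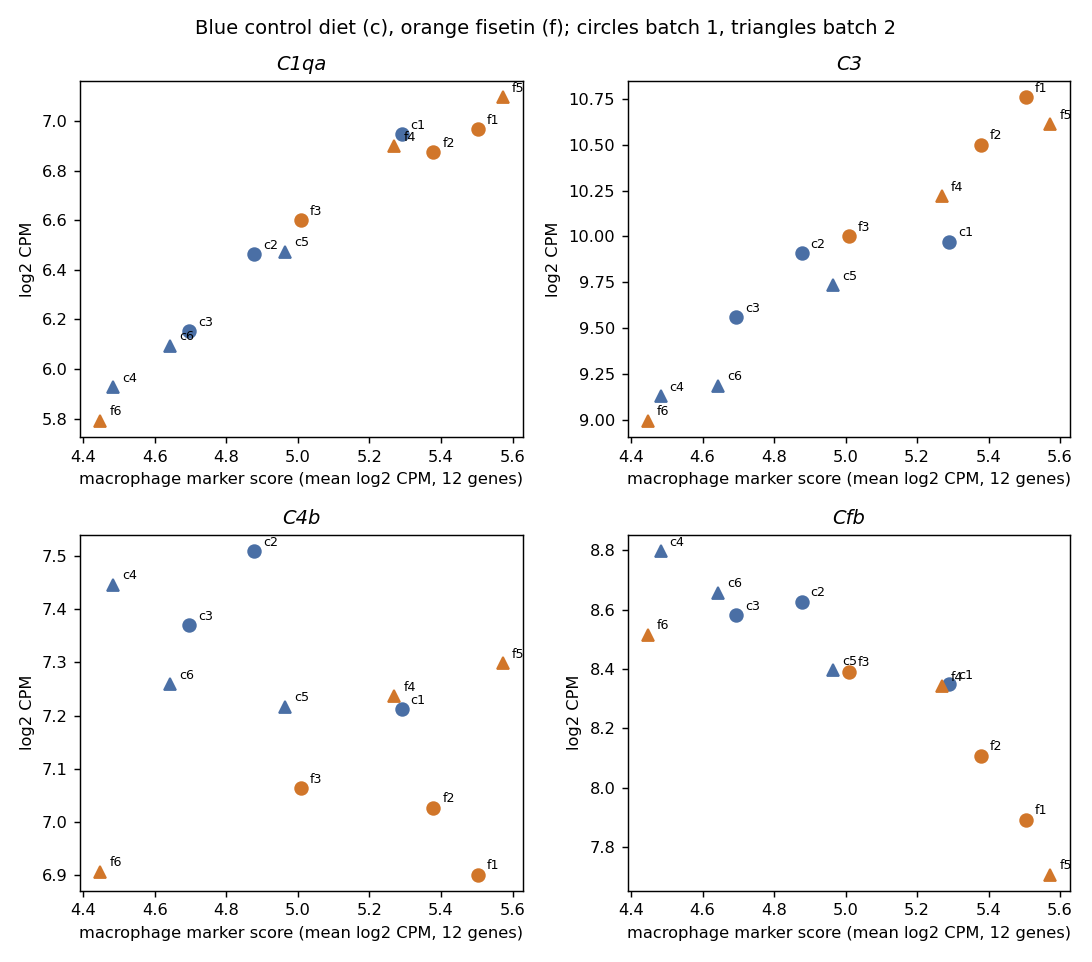
Level of C1qa, C3, C4b and Cfb (log2 CPM) against the macrophage marker score (mean log2 CPM of 12 genes) in each library; blue c1 to c6 are control diet, orange f1 to f6 fisetin, circles batch 1 and triangles batch 2. C1qa and C3 lie high where the score is high, Cfb lies low there, and in C4b fisetin 6 lies low at the lowest score.

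Markers of injured tubules, which include the osteopontin gene Spp1 and the lipocalin gene Lcn2, were also compared, since tubule injury is a known setting of local complement synthesis. Their score was 6.71 ± 0.28 log2 CPM with the control diet and 6.76 ± 0.41 with fisetin (difference 0.05, exact permutation p = 0.865). The difference was 0.17 in batch 1 and -0.07 in batch 2, and 4 of the 8 markers had positive fold changes. With batch and diet means removed, r over 12 libraries was 0.884 for C1qa, 0.857 for C1qb, 0.840 for C1qc, 0.705 for C1ra, 0.887 for C3, 0.740 for C3ar1 and 0.860 for C5ar1. Their rho was 0.692 to 0.867, and the exact permutation p of r was 0.0147 to 0.0201 (adjusted 0.0235 to 0.0241), with 0.0154 to 0.0309 for rho (adjusted 0.0248 to 0.037). With batch means alone removed, C1ra did not pass by r (0.568, permutation p = 0.104, adjusted 0.125) and Cfb passed by rho (-0.706, permutation p = 0.019, adjusted 0.0228) but not by r. Without fisetin 6 and control 5, the farthest, these r were 0.561 to 0.790, and they were 0.556 to 0.853 in batch 1 and 0.857 to 0.941 in batch 2. Within batch 1 they rested on control 3 and fisetin 3, without which r was -0.768 to -0.246. Cfb had r = -0.582 and rho = -0.552 (exact permutation p = 0.245 and 0.149, adjusted 0.275 and 0.168) and C4b r = 0.394 and rho = 0.287 (p = 0.462 and 0.517, adjusted 0.489 and 0.547). Without those 2 libraries they were -0.349 and 0.220, in batch 1 they were -0.352 and -0.0016, and in batch 2 they were -0.649 and 0.504. In each batch and diet the same library was lowest in the injured tubule score and in the macrophage score. These were control 3, fisetin 3, control 4 and fisetin 6, the last at 5.94 and 4.45. Relations of the members with the 2 scores are therefore not separate, and they were not tested apart.

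The genes most like each member in this sense were taken from 14981 genes ranked with batch and diet means removed. For C1qa they were C1qb (r = 0.997), Jpt1 (0.993) and B4galnt1 (0.992), and for C1qb they were C1qa, the interleukin-10 receptor gene Il10ra (0.995) and the TNF receptor gene Tnfrsf1b (0.995). For C1qc they were Tpx2 (0.994), the macrophage gene Ms4a7 (0.993) and Adcy7 (0.991), and for C1ra they were C3ar1 (0.986), Lair1 (0.985) and the apolipoprotein gene Apoe (0.982). For C3ar1 they were Apbb1ip (0.990), Tbc1d2b (0.989) and C1ra (0.986), and for C5ar1 Flna (0.995), Ptprs (0.993) and Samd4 (0.990). For C3 they were Ltbp2, which encodes a latent TGF-beta binding protein (0.985), Ess2 (0.980) and Cavin3 (0.980). Cfb was most like Fkbp4 (0.999), Amdhd2 (0.996) and the potassium channel gene Kcnj10 (0.993). C4b had lower values, with Tlcd2 (0.942), Ino80dos (0.902) and Exoc3 (0.882). These genes are the highest of many over 12 libraries, and the values are descriptions with no test.

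Other cell types in the same libraries were described with the rest of the 10 marker lists. T cell markers (7 of 7 tested) had a score difference of 0.64 and B cell markers (6 of 6) of 1.33, with exact permutation p of 0.105 and 0.13. Leaving out 1 library at a time gave 0.44 (without fisetin 5) to 0.91 (without fisetin 6) for T cells and 0.88 (without control 2) to 1.80 (without control 1) for B cells, and the smallest unadjusted exact permutation p was 0.025 and 0.04. For proximal tubule markers, such as the phosphate transporter gene Slc34a1, the score difference was -0.45, with an exact permutation p of 0.115 and negative fold changes in 9 of 9 genes, and it ran from -0.64 without fisetin 6 to -0.26 without fisetin 5. Fisetin 6 had the highest proximal tubule score (9.91) and the lowest macrophage score (4.45), and fisetin 5 the lowest (8.38) and the highest (5.57). Within each diet Cfb was lowest and highest in the same libraries as the proximal tubule score. With the control diet these were control 1 (326 CPM, score 9.07) and control 4 (445 CPM, score 9.90). With fisetin they were fisetin 5 (209 CPM) and fisetin 6 (366 CPM). The relation of Cfb with this score was not tested. Fibroblast, endothelial and adipocyte markers differed by 0.02, -0.09 and 0.02 (exact permutation p = 0.885, 0.31 and 0.985), and each of the 9 lists with a score had an adjusted p of 0.292 or more. Of 8 neutrophil markers 2 passed the count filter, and the whole list summed to 4.36 to 9.47 CPM. Hepatocyte markers summed to 1126 CPM in fisetin 5 and to 134 to 306 CPM elsewhere, and their score difference was 0.21 (exact permutation p = 0.995).

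The rest of the complement pathway was taken from a list of 45 further genes, of which 33 passed the count filter. Of these 33, 23 had positive and 10 negative fold changes, and 0 passed by either edgeR or DESeq2. At an unadjusted p under 0.05 by edgeR, 4 were higher, among them Masp1, Itgax and Itgb2, and 0 lower, where 8.23% and 6.34% of all genes were, so the share higher was near that of all genes. Their median log2 fold change was 0.14, and the smallest adjusted p was 0.300. The plot of fold changes by role sets abundant genes of each role beside the 9 members.

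**Figure D4:**
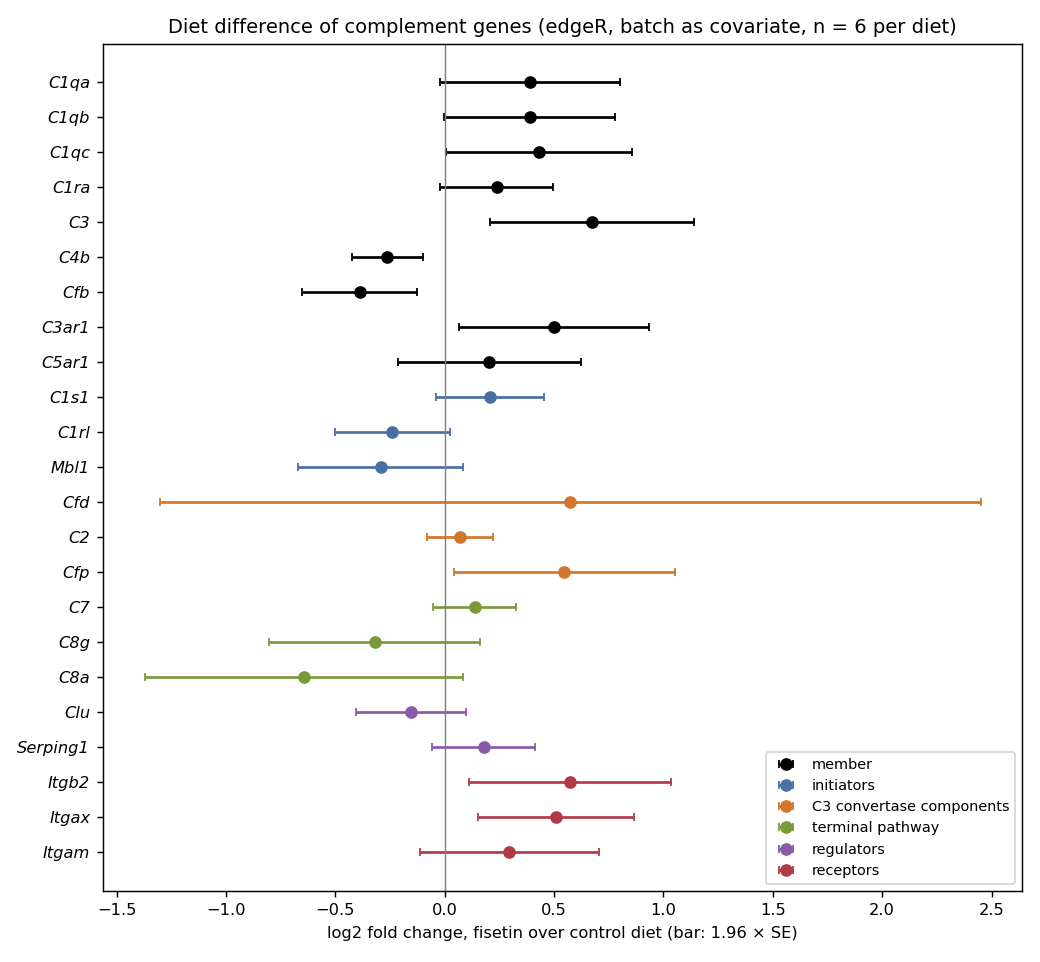
Log2 fold change of fisetin over control diet for the 9 members (black) and 14 other complement genes (coloured by role). These 14 are among the most abundant of their role. Bars are the standard error times the normal 95% multiple, and they are narrower than 95% intervals of the edgeR test. Bars of C4b and Cfb lie to the left of 0 and those of C3, C3ar1, Itgax and Itgb2 to the right, all without passing over all genes. Bars of C1qc and Cfp also lie to the right of 0, although their unadjusted p by edgeR was 0.070 and 0.056.

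Among the initiators, which recognise targets and cut C4 and C2, 3 of 5 tested genes had positive fold changes. C1s1, the C1s partner of C1r, stood at 0.21 ± 0.13, C1rl at -0.24 ± 0.13 and the mannose-binding lectin gene Mbl1 at -0.29 ± 0.19. Masp1, a protease of the lectin pathway, ranged from 4.57 over a median of 5.82 to 9.87 CPM with the control diet and from 5.996 over 10.4 to 17.6 CPM with fisetin, at 0.73 ± 0.30 (edgeR adjusted p = 0.315). Of 4 further convertase components, C2 was described above, and Cfp, which encodes properdin, the stabiliser of the alternative convertase, stood at 0.55 ± 0.26. Cfd, the gene of factor D that adipocytes make, stood at 0.57 ± 0.96 and ranged from 4.29 to 147 CPM over the 12 libraries. It was highest in control 3, fisetin 5, fisetin 2 and fisetin 1, where the adipocyte markers also had their 4 highest sums (351, 278, 186 and 169 CPM).

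Terminal pathway genes, whose products form the membrane attack complex, had 3 of 5 positive fold changes. C7 stood at 0.14 ± 0.10, C8g at -0.32 ± 0.25 and C8a at -0.64 ± 0.37. Fisetin 5 held the highest level of several of the liver-made components: Hc, the mouse gene of C5, was at 12.3 CPM there and at no more than 2.71 CPM elsewhere, C9 was at 2.27 against no more than 0.351 CPM, and the regulator gene Vtn was at 13.9 against no more than 0.475 CPM.

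Regulators, which protect host cells, had 9 of 14 positive fold changes. Clu, the clusterin gene, stood at -0.16 ± 0.13 and Serping1, the C1 inhibitor gene, at 0.18 ± 0.12. Of the receptors, 5 of 5 had positive fold changes. The complement receptor integrin genes Itgax and Itgb2 stood at 0.51 ± 0.18 and 0.57 ± 0.24, and Itgam at 0.30 ± 0.21. In these 3 genes, as in the C1q genes, fisetin 6 was the lowest fisetin kidney. Among 6 cytokine genes known to induce complement synthesis, Il1b (-0.0048 ± 0.32) and Tnf (0.48 ± 0.22) were abundant enough to test, neither passed, and Il6 was below the filter.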

How the data were processed

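Per the file headers, the authors deposited estimated counts, TPM and FPKM in one table of 12 kidney libraries. According to the submitters' processing notes, the tools were fastp, STAR, featureCounts and DESeq2, on GRCm38 or mm10. Their versions, the annotation release and the counting options were not given in the sources used here. These estimated counts deposited by the authors are not scaled, and 13.91% of values above 0 were fractional (tolerance 1e-06), and all were rounded. The TPM and FPKM values were scaled by the authors for transcript length and for library size. The 36 value columns carry sample names, and groups came from the titles. Library numbers follow accession order and pair nothing. Positions came from GENCODE M21 (GRCm38).

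Genes passing filterByExpr by diet (minimum count 10; 17890 genes) were scaled with TMM, fitted in R 4.3.3 with edgeR 4.0.16 (robust glmQLFit on batch and diet, then the two-sided glmQLFTest), with Benjamini-Hochberg adjustment over all genes and a threshold of 0.05. DESeq2 1.42.0 and limma 3.58.1 were alternatives. A standard error is the fold change over the root of F. Log2 CPM used a prior count of 2. Scores of marker lists with at least 3 tested genes were compared over all arrangements of diet within batch, where the smallest two-sided p is 0.005. The tests across genes were checked on simulated counts, drawn gene by gene with no batch effect. That check does not cover shifts shared by many genes between libraries.

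The members, lists and tests were chosen with earlier results of these data known. Named are all members, the 3 most abundant other genes of each role and those past the threshold, the 2 most abundant of a marker list, and for likeness the 3 highest. Masp1, C4a, C1rb, C5ar2, Gm20547, Alb, Hc, C9 and Vtn were named after their values were seen. A regulator gene that this rule takes in is not reported here. With no protein sequences at hand, none are shown. Counting error is small at the depths of most members, and the spread between libraries sets the precision there. It is larger for named genes with few counts, such as C4a with 18.14 to 55.0 counts in a library.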

Additional observations from a re-analysis of the deposited data

Results flagged for a closer look

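In 48 groups of 6 libraries, made of the members and the named complement genes by diet, 3 had an end library set apart from the rest by more than Dixon's 95% critical value. Chance sets apart about 5% of groups. Itgax, a complement receptor integrin gene of myeloid cells, was at 4.56 log2 CPM in fisetin 6, against 5.46 in the next fisetin library. Itgam, which encodes the other such integrin chain, was at 3.80 in fisetin 6, against 4.78 in the next. Fisetin 6 was also the lowest of all libraries in macrophage marker score. Mbl1, a lectin pathway gene, was at 1.00 log2 CPM in control 1, against 1.81 in the next control library. None of the 9 members was set apart in this way.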

How the results depend on the processing

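The 9 members kept their signs under all 21 alternatives tried. The ranges of the log2 fold change were 0.26 to 0.53 for C1qa, 0.23 to 0.56 for C1qb, 0.30 to 0.57 for C1qc, 0.09 to 0.39 for C1ra, 0.51 to 0.82 for C3, -0.37 to -0.15 for C4b, -0.46 to -0.30 for Cfb, 0.35 to 0.65 for C3ar1 and 0.09 to 0.40 for C5ar1. limma-voom with sample quality weights, which gave fisetin 6 the lowest weight (0.36) and fisetin 5 the next (0.409), called 7 of the 9 members (all but C1ra and C5ar1), 6 other complement genes (among them Masp1, Cfp, Itgax and Itgb2 higher and C8a lower) and 2390 genes in all, or 13.4%. The other alternatives called 0 members and 0 other complement genes. Over all genes DESeq2 called 144 and batch 1 alone called 1, and leaving out 1 library at a time gave 0 to 70, the 70 without fisetin 6 and 1 without fisetin 4. The C1q minus tubule-made difference was 0.30 to 0.52 without 1 library at a time. Within batch 1 or batch 2 alone, 0 of the relations with marker scores passed. There the smallest exact permutation p that 36 arrangements can give is 0.0278, so passing needs most of the 18 relations at that value. With batch means alone removed, the relation of C1ra with the injured tubule score did not pass by r (0.568). The r of C4b with the macrophage score was -0.734 in batch 1 and -0.241 with only batch means removed, and with the injured tubule score -0.0016 in batch 1. Marker scores near 0 turned sign without 1 library: the score differences ran from -0.0506 to 0.213 for injured tubule, -0.0463 to 0.115 for fibroblast, -0.561 to 0.546 for adipocyte and -0.251 (without fisetin 5) to 0.455 for hepatocyte markers. No list score passed under any alternative. No paired analysis was possible because the labels give no replicate numbers shared between the diets. Total count scaling turned the split of genes at an unadjusted p under 0.05 from 1473 higher and 1135 lower to 1845 and 845, and log2(TPM + 1) to 1044 and 255. The cause of these changes was not tested.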
